A study of Mus musculus with 14 samples.

Results

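The 14 hippocampal libraries fell into 2 classes by their content of Prm2, the gene for protamine 2. In 7 of the 14 libraries Prm2 was at 10 FPKM (fragments scaled to exon length and to mapped reads) or more, and in the other 7 it was under 1 FPKM. The Prm2-high libraries were Δ3102 replicate 3, AG-KO replicate 2, NG-KO replicates 1, 3 and 4 and WT replicates 2 and 3. The Prm2-low libraries were Δ3102 replicates 1 and 2, AG-KO replicates 1, 3 and 4, NG-KO replicate 2 and WT replicate 1. The libraries were chosen by their Prm2 FPKM, a measured value, and the difference in Prm2 itself is a description and not a finding. No label names these classes.

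The study sequenced polyadenylated RNA of the hippocampus to follow the consequences of losing the G protein–coupled estrogen receptor GPR30, encoded by Gper1. All mice were female, 10 weeks old and of strain C57BL/6J. Δ3102 mice (n = 3) were global GPR30 KO mice made with CRISPR/Cas9, AG-KO mice (n = 4) carried floxed GPR30 alleles and GFAP-Cre for deletion in astrocytes, NG-KO mice (n = 4) carried floxed alleles and NSE-Cre for deletion in neurons, and WT mice (n = 3) carried no mutation. The Cre lines were compared with WT mice only, so effects of the floxed allele or of the Cre transgene cannot be told apart from loss of GPR30, and the tissue was whole hippocampus in every group.

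Protamines are small, arginine-rich proteins that package sperm DNA. During spermatid maturation in the testis, histones are first displaced by the transition proteins (Tnp1 and Tnp2) and then replaced by protamines 1 and 2 (Prm1 and Prm2). Prm1, Prm2, Prm3 and Tnp2 lie next to each other in 1 cluster, and their mRNAs are made in round spermatids and stored until the cell elongates. None of these genes is a known marker of a hippocampal cell type.

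The 4 genes that carry the description below are shown by the promoter window that RefSeq gives for each on build GRCm38.p6, from 250 bases before the transcript start to 50 bases after it, 5′ to 3′ on the gene's strand. All 4 genes lie on the minus strand, with windows at chr16:10792056-10792355 (Prm2), chr16:10796774-10797073 (Prm1), chr16:10788606-10788905 (Tnp2) and chr1:73015850-73016149 (Tnp1). Capitals mark TGANGTCA, a pattern close to the cAMP response element read by CREM in spermatids, and TATANA, a pattern of the core promoter, both searched on both strands.
Prm2: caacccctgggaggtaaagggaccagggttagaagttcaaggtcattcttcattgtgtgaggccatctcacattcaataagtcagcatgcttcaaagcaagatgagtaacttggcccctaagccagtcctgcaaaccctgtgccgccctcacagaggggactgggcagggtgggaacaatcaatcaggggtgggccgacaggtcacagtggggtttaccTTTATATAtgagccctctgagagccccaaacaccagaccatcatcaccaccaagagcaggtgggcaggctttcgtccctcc
Prm1: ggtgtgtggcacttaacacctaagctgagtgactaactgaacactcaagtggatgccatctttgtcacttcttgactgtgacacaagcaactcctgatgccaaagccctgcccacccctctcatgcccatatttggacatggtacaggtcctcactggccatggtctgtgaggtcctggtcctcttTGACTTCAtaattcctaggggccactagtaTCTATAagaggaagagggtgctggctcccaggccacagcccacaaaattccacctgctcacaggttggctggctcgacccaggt
Tnp2: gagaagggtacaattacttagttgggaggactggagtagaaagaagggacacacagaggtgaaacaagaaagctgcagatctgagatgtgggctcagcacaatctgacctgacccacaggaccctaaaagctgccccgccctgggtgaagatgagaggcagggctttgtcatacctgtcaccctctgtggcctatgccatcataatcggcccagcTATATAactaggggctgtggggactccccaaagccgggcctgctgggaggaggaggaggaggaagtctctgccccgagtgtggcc
Tnp1: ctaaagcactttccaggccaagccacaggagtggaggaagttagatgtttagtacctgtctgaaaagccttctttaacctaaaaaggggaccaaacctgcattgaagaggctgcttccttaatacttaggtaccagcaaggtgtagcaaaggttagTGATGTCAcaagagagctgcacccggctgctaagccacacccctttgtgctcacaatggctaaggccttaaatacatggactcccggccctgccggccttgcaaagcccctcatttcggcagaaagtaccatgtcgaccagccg

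TGANGTCA was found in the windows of Prm1, starting at position -64 relative to the transcript start, and Tnp1, at position -94, and not in those of Prm2 and Tnp2. TATANA was found at positions -31 and -29 in Prm2 as overlapping matches, at -34 in Prm1 and at -35 in Tnp2. Over the genes called higher in Prm2-high libraries (below), 159 of 210 matched a RefSeq gene with a window, and TGANGTCA stood in 25.5% of their 192 windows, against 8.83% of all 32851 windows of the same length. The exact palindrome TGACGTCA stood in 1.56% of the windows of the genes called higher, against 1.79% of all windows. TATANA stood in 20.8%, against 24.7% of all windows. These shares describe letters in the windows and no binding was measured.

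Prm2 itself spanned a wide range within the Prm2-high class. It stood at 37.8 FPKM in Δ3102 replicate 3, at 12.3 FPKM in AG-KO replicate 2, at 27.4, 14.7 and 10.7 FPKM in NG-KO replicates 1, 3 and 4, and at 40.2 and 41.3 FPKM in WT replicates 2 and 3. In the Prm2-low class it was 0.389 and 0.277 FPKM in Δ3102 replicates 1 and 2 and 0.703 FPKM in WT replicate 1, and no Prm2 count was recorded in AG-KO replicates 1, 3 and 4 or in NG-KO replicate 2. The threshold thus fell in a wide gap, between NG-KO replicate 4 at 10.7 FPKM and WT replicate 1 at 0.703 FPKM. In counts, Prm2 ranged from 519 to 2551 in Prm2-high libraries, against 0 to 41 in Prm2-low libraries. A library with 0 counts could have missed a level of up to 0.0674 CPM (counts scaled to the library total), the value of 3 counts in the shallowest of them.

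Facts of the whole series were alike in both classes. Total counts ranged from 48235215 to 62669865 in Prm2-high libraries and from 44527024 to 57805943 in Prm2-low libraries, and the difference of -0.01 in log2 depth was within the spread (exact two-sided permutation test over 3432 assignments, p = 0.864, Benjamini-Hochberg adjusted over 4 measures p = 0.999). Genes at 0.5 FPKM or more numbered 15955 to 16753 in Prm2-high libraries and 15706 to 16196 in Prm2-low libraries (difference in means 269, exact permutation p = 0.104, adjusted p = 0.415). With the classes permuted within genotype only, the unadjusted exact permutation p of that difference was 0.0347. Gper1 was at 0.0124 to 0.145 FPKM in the 3 Δ3102 libraries and at 0.54 FPKM or more in all others. Xist, the RNA of the inactive X chromosome, was at 12.2 to 20.2 FPKM in Prm2-high libraries and at 14.9 to 20.2 FPKM in Prm2-low libraries, and no Y-linked gene of the 12 listed exceeded 0.131 FPKM in any library.

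**Figure D1:**
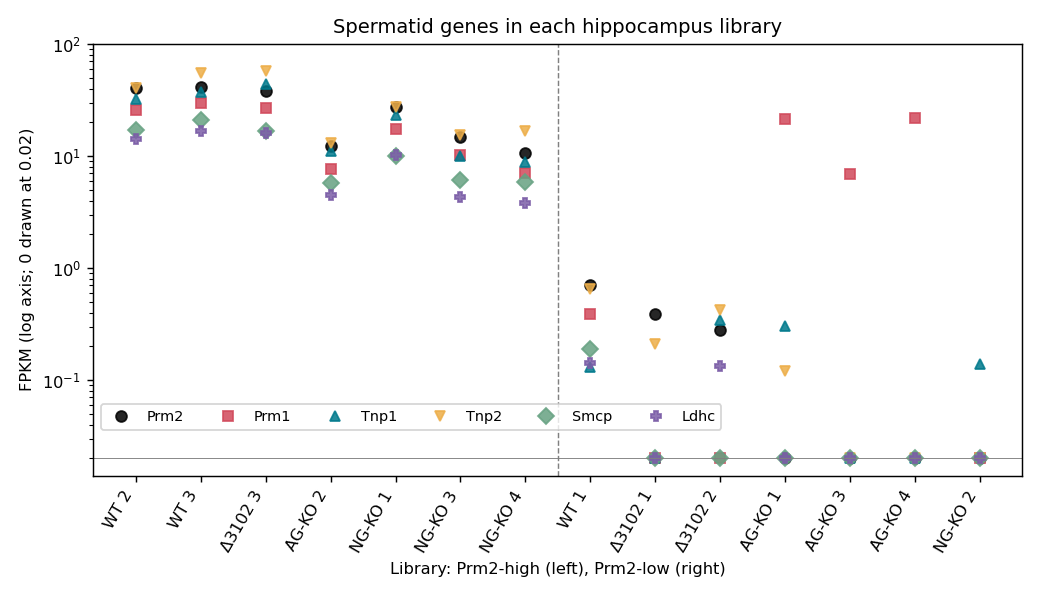
FPKM of 6 spermatid genes (log axis, values of 0 drawn at 0.02) in each of the 14 libraries, Prm2-high on the left of the dashed line and Prm2-low on the right, 1 point per gene and library. The 6 genes move together from 3.84 FPKM upwards in Prm2-high libraries, and Prm1 alone stays between 6.9 and 21.8 FPKM in 3 Prm2-low libraries, all of them AG-KO.

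The first question was which sperm chromatin genes went with Prm2. Of the 10 listed genes found in the table, 7 passed the filter on low values (0.5 FPKM in at least 3 libraries), and 6 of these 7 had every Prm2-high library above every Prm2-low library. The filter can be passed through the Prm2-high libraries alone, so this count supports nothing beyond the rule. Over all 18059 tested genes, 226 had every Prm2-high library above every Prm2-low library. In the edgeR fit with genotype as a term, 6 of the 7 were called at an adjusted p under 0.05, all higher, where 1.16% of the 18059 tested genes were called in that direction. Prm2, whose call the rule fixed, is among these 6 in both counts, and nothing is read from them.

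Tnp2 followed Prm2 at about the same level. It ranged from 13 FPKM (AG-KO replicate 2) through a median of 27.6 to 56.8 FPKM (Δ3102 replicate 3) in Prm2-high libraries, against 0 to 0.652 FPKM with a median of 0.121 in Prm2-low libraries, and the classes did not overlap (log2 fold change 7.35 ± 0.53, SE). Tnp1, the transition protein gene outside the cluster, ranged from 8.78 through a median of 23.2 to 43.7 FPKM in Prm2-high libraries, against at most 0.346 FPKM in Prm2-low libraries (log2 fold change 7.24 ± 0.71). Both genes were highest in Δ3102 replicate 3, a library of the Prm2-high class, and Tnp1 was at 0 counts in 3 Prm2-low libraries.

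The remaining members were lower. Hils1, a spermatid linker histone, had a median of 4.29 FPKM in Prm2-high libraries (1.3 to 6.25 FPKM), against at most 0.2 FPKM in Prm2-low libraries. H1fnt, the linker histone of elongating spermatids, had a median of 1.55 FPKM in Prm2-high libraries (0.857 to 4.02 FPKM), against at most 0.0882 FPKM in Prm2-low libraries. Prm3, in the protamine cluster, had a median of 3.77 FPKM in Prm2-high libraries (0.602 to 5.24 FPKM), against at most 0.225 FPKM in Prm2-low libraries, where it was at 0 counts in 6 of 7. Prm3 was no longer called without AG-KO replicate 2 (adjusted p = 0.0504). The testis histone genes Hist1h1t, Hist1h2ba and Hist1h2aa did not pass the filter, and none of them exceeded 0.148 FPKM in any library. Hils1 lies opposite Sgca and Tnp1 opposite 1700027A15Rik on the other strand, and whether the counting used strand is not given in the sources used here.

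Prm1 did not follow the Prm2 classes. In Prm2-high libraries it stood at 26.6 FPKM in Δ3102 replicate 3, at 7.71 FPKM in AG-KO replicate 2, at 17.4, 10.1 and 7.07 FPKM in NG-KO replicates 1, 3 and 4, and at 25.8 and 29.8 FPKM in WT replicates 2 and 3. In Prm2-low libraries it was at 0 counts in Δ3102 replicates 1 and 2 and NG-KO replicate 2 and at 0.387 FPKM in WT replicate 1, but at 21.4, 6.9 and 21.8 FPKM in AG-KO replicates 1, 3 and 4. In these 3 AG-KO libraries Prm1 had 681, 199 and 785 counts while Prm2 had 0 counts in each, Tnp2 did not exceed 0.121 FPKM and Tnp1 did not exceed 0.306 FPKM.

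The classes therefore overlapped for Prm1, and its log2 fold change of 6.48 ± 1.57 (SE) did not pass the threshold (adjusted p = 0.1). Without the 3 AG-KO libraries, a choice made after the data were seen, the log2 fold change was 7.92 ± 0.9 with an adjusted p of 0.00662. Without AG-KO replicate 2 alone, which leaves that genotype with Prm2-low libraries only, it was 7.9 ± 0.88 (adjusted p = 0.00364). In 3 of the genotypes Prm1 was higher in every Prm2-high library than in every Prm2-low library of that genotype. AG-KO mice were the exception. A fit of whether the class difference in Prm1 depended on genotype rests on 1 library in 1 class of each genotype, so nothing is read from it. Prm1 overlaps the pseudogene Gm10343 and the antisense gene Gm46563 on the other strand. Gm10343 was at 1.4, 0.722 and 1.13 FPKM in AG-KO replicates 1, 3 and 4, within its range of 0.641 to 3.71 FPKM over all libraries, and Gm46563 did not exceed 0.363 FPKM in any library. Why Prm1 was present without Prm2 in these 3 libraries was not tested.

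Within the Prm2-high class Prm1 stood in a nearly fixed proportion to Prm2, and the other germ-cell genes compared here varied more. The classes do not set these proportions. Prm1 ranged from 0.629 to 0.722 times the FPKM of Prm2 over the 7 libraries, a spread of 1.15-fold, while Prm2 itself varied 3.86-fold. AG-KO replicate 2, the only AG-KO library of this class, was at the lower end of that range (0.629). Ldhc varied 1.46-fold relative to Prm2 (0.295 to 0.43), Smcp 1.49-fold (0.365 to 0.545), Tnp2 1.54-fold (1.01 to 1.55) and Tnp1 1.71-fold (0.678 to 1.16). Several lower genes varied more, with Pgk2 at 2.09-fold, Prm3 at 2.51-fold and Fabp9 at 2.89-fold, while Hils1 was at 1.56-fold. Alb and Acta1, markers of liver and skeletal muscle that also differed between libraries of this series, varied 158-fold and 28.3-fold relative to Prm2. The ratios are a description.

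**Figure D2:**
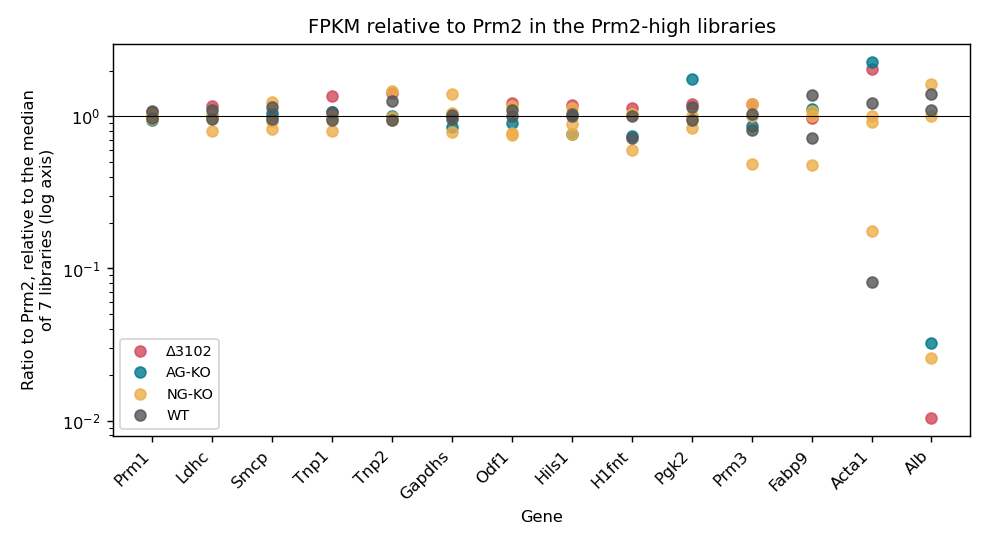
Ratio of each gene's FPKM to that of Prm2 in the 7 Prm2-high libraries, divided by the median of the 7 ratios (log axis), 1 point per library, coloured by genotype. The points of Prm1 span 1.15-fold and those of Alb 158-fold.

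The genes most like Prm2 were taken as tested genes with no overlap between the classes, a median of at least 1 FPKM in Prm2-high libraries and a named symbol, ordered by the ratio of the class medians after adding 0.1 FPKM. Of 91 such genes, the first 20 had ratios from 22.6 to 125. Over the 7 Prm2-high libraries, Pearson's r of their log2(FPKM + 0.1) with that of Prm2 ranged from 0.64 to 0.99 with a median of 0.95, given as a description over 7 points that share the class. Of these 20 genes, 9 stood in one of the germ-cell lists and 11 in none.

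Tnp2, Tnp1, Hils1 and Prm3 of the sperm chromatin list, described above, were in this set, with ratios of 125, 101, 43.9 and 38.7. Among the rest, Ldhc had the highest ratio (104), followed by Smcp (101) and Odf1 (64.4), genes of sperm energy supply and of the sperm tail. Ldhc, the lactate dehydrogenase subunit of spermatocytes, spermatids and sperm, had 3.84 FPKM at the lowest, 10.3 FPKM at the median and 16.8 FPKM at the highest in Prm2-high libraries, against at most 0.142 FPKM in Prm2-low libraries (r with Prm2 0.99). Smcp, which encodes a protein of the sperm mitochondrial capsule, had 5.71, 9.99 and 20.9 FPKM in the same order, against at most 0.19 FPKM in Prm2-low libraries, where 6 of 7 libraries were at 0 counts. Odf1, a component of the outer dense fibres of the tail, had 3.33, 6.35 and 13.8 FPKM, against at most 0.249 FPKM in Prm2-low libraries. None of the 3 genes overlapped between the classes. Pgk2, the phosphoglycerate kinase of spermatogenic cells, had a median of 2.3 FPKM in Prm2-high libraries (0.872 to 4.02 FPKM), against at most 0.114 FPKM in Prm2-low libraries.

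Most of the others stood in no list. Fabp9, a lipid-binding protein of the testis that stood in the tail list, had a median of 6.17 FPKM in Prm2-high libraries (1.57 to 12.8 FPKM), against at most 0.178 FPKM in Prm2-low libraries. The testis α-tubulin genes Tuba3a and Tuba3b had medians of 5.54 and 4.89 FPKM in Prm2-high libraries, against medians of 0.041 and 0 FPKM in Prm2-low libraries. These 2 genes are near-identical copies whose reads may have been divided between them, so their separate values are uncertain. Cmtm2a and Cmtm2b, neighbouring genes on chromosome 8, had medians of 2.16 and 2.34 FPKM in Prm2-high libraries and 0 counts in all 7 Prm2-low libraries. Against the value of 3 counts over the 7 Prm2-low libraries together, pooled CPM in Prm2-high libraries were at least 390-fold higher for Cmtm2a and at least 253-fold higher for Cmtm2b. Cox8c, a testis form of a cytochrome c oxidase subunit, had a median of 2.86 FPKM in Prm2-high libraries (0.679 to 5.51 FPKM), against at most 0.0997 FPKM in Prm2-low libraries. The others were Hrasls5, Cypt12, Gtsf1l, Spata20, Rbakdn and Spz1, with medians between 2.25 and 3.13 FPKM in Prm2-high libraries and no median above 0 counts in Prm2-low libraries. Gtsf1l was the least stable of the 20, with r = 0.64 and a call in 22 of 26 alternative settings.

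Across the genome, 210 genes were called higher in Prm2-high libraries and 1 lower, among 18059 tested (1.16% and 0.00554%), and 1057 genes had an unadjusted p under 0.05. Leaving out Δ3102 replicate 3 lowered the count to 119, of which 116 were among the 211. The median log2 fold change of all tested genes was 0.002. The 210 genes had a median log2 fold change of 6.84, with 189 of them not overlapping between the classes, 172 at a median under 0.1 FPKM in Prm2-low libraries and 66 at 0 counts in all 7 of those. Of the 210, 196 were protein coding and 36 stood in a germ-cell list. Their summed level was 336 to 1120 CPM in Prm2-high libraries, against 46.3 to 61.8 CPM in Prm2-low libraries, so even in WT replicate 3 they made up 0.112% of counts. They were spread over all autosomes, with 10% on chromosome 11, 8.57% on chromosome 17, 2.38% on X and 0 on Y, beside 7.79%, 4.82%, 3.37% and 0.0332% of tested genes on these chromosomes.

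**Figure D3:**
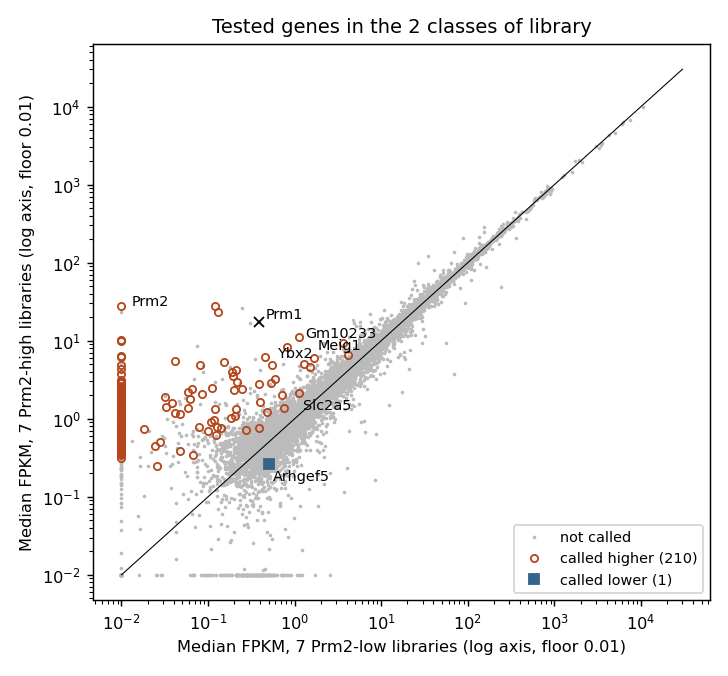
Median FPKM of each tested gene in the 7 Prm2-high libraries (vertical, log axis) and the 7 Prm2-low libraries (horizontal, log axis), with medians under 0.01 drawn at 0.01 and the diagonal marking equal levels. Most of the 210 genes called higher (open circles) sit at the left edge, 7 of them have a median of at least 1 FPKM in Prm2-low libraries, and Prm1 is marked by a cross.

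The Prm2-low libraries were not all alike. Of the 210 genes, 87 had at least 1 count in WT replicate 1, 89 in Δ3102 replicate 1 and 78 in Δ3102 replicate 2, the 3 Prm2-low libraries in which Prm2 was counted. In the 4 libraries without a Prm2 count (AG-KO replicates 1, 3 and 4 and NG-KO replicate 2) the numbers were 66, 66, 67 and 59. In all Prm2-high libraries at least 207 of the 210 genes had a count.

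Genes of the sperm tail and of spermatid metabolism formed the largest group. Of 36 listed genes 33 were tested and 24 called higher, with a median log2 fold change of 4.59 against 0.002 over all tested genes. Over all tested genes 1.16% were called higher, and the count of this list is a description. Gapdhs, the sperm glyceraldehyde-3-phosphate dehydrogenase, had 3.02, 6.26 and 12.1 FPKM at the lowest, median and highest in Prm2-high libraries, against 0.104, 0.453 and 0.515 FPKM in Prm2-low libraries. Gsg1, a gene of germ cells, had 2.55, 5.39 and 8.6 FPKM in Prm2-high libraries, against 0, 0.153 and 0.44 FPKM in Prm2-low libraries. Oaz3, the testis antizyme of polyamine metabolism, had 2.31, 4.26 and 6.13 FPKM in Prm2-high libraries, against 0.13, 0.213 and 0.651 FPKM in Prm2-low libraries. The classes did not overlap for any of the 3. Akap4, the main scaffold of the fibrous sheath, had a median of 2.0 FPKM in Prm2-high libraries, against at most 0.0481 FPKM in Prm2-low libraries. Among the members not called were Cabyr at 2.11 to 2.96 FPKM in Prm2-high libraries and 1.16 to 2.66 FPKM in Prm2-low libraries, and Catsper2 at 0.501 to 1.7 FPKM and 0.548 to 1.05 FPKM in the same order. Oxct2a was called and its near-identical copy Oxct2b was not (adjusted p = 0.0539), and their reads may have been divided.

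Genes of the acrosome, the vesicle that covers the sperm head, were lower. Of 18 listed genes 7 passed the filter, 6 of these were at an unadjusted p under 0.05 and 3 were called higher. Of the 18, tested or not, 5 had every Prm2-high library above every Prm2-low library, beside 226 of the 18059 tested genes. Over all tested genes 1.16% were called higher, and the counts of this list are a description. Crisp2 had a median of 1.35 FPKM in Prm2-high libraries (0.488 to 2.55 FPKM), against at most 0.0419 FPKM in Prm2-low libraries. Adam3 had 0.234 to 2.24 FPKM in Prm2-high libraries, against at most 0.0597 FPKM in Prm2-low libraries. Zpbp2, the third gene called, did not exceed 1.09 FPKM. The call of Zpbp2 was kept in 12 and that of Adam3 in 23 of the 25 alternative settings that tested them. Dkkl1, at 1.66 to 5.96 FPKM in Prm2-high libraries and 0.578 to 2.97 FPKM in Prm2-low libraries, overlapped between the classes and was not called.

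Among transcription and translation regulators of spermatids, the log2 fold change was positive for 7 of 8 tested genes with a median of 0.4. Of 12 listed genes, tested or not, 5 had every Prm2-high library above every Prm2-low library, beside 226 of the 18059 tested genes. Of the 8 tested, 4 were at an unadjusted p under 0.05 and 3 were called by DESeq2. By edgeR 2 were called, where 1.16% of all tested genes were called higher. These 2 were Ybx2 (described below) and Fhl5, a CREM coactivator. Fhl5 had a median of 0.813 FPKM in Prm2-high libraries and at most 0.0508 FPKM in Prm2-low libraries. Its call was kept in only 10 of the 25 alternative settings that tested it. Crem, whose protein activates the protamine genes in the testis and which the brain also expresses, was at 0.989 to 1.92 FPKM in Prm2-high libraries and at 1.12 to 1.86 FPKM in Prm2-low libraries. Tbpl1 was at 20 to 23.2 FPKM and 16.5 to 22.6 FPKM in the same order. The classes overlapped for Crem and Tbpl1, which were not called.

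Genes of earlier germ cells were low, or were present in both classes. Of 19 listed genes of meiotic spermatocytes 6 were tested and 0 called by edgeR, with 3 at an unadjusted p under 0.05, 2 called by DESeq2 and 0 by limma. Syce1 and Syce3, proteins of the synaptonemal complex, had medians of 0.734 and 0.654 FPKM in Prm2-high libraries, against medians of 0 in Prm2-low libraries. Of the Prm2-high libraries, however, NG-KO replicate 4 held 0 counts of both, and AG-KO replicate 2 held 0 counts of Syce3. Sycp3 was at 0.258 to 1.31 FPKM in Prm2-high libraries and at most 0.377 FPKM in Prm2-low libraries. The highest listed spermatocyte gene, Syce2, was at 3.2 to 4.36 FPKM in Prm2-high libraries and at 2.07 to 4.82 FPKM in Prm2-low libraries. Rec8 was at 0.0728 to 1.35 FPKM and 0.506 to 1.83 FPKM in the same order, and Ccna1 at 0.322 to 1.67 FPKM and 0.16 to 0.977 FPKM. The classes overlapped for Syce2, Rec8 and Ccna1. Of 13 listed spermatogonial genes 5 were tested and 1 called, beside 1.16% of all tested genes called higher. The called gene was Tex101, a germ-cell surface protein that is also found on later germ cells. Tex101 had 0.186 to 1.11 FPKM in Prm2-high libraries and 0 counts in all Prm2-low libraries. Gfra1 and Zbtb16, which neurons and glia also express, stood at 11.3 to 14.2 FPKM and 6.87 to 10.6 FPKM in Prm2-high libraries and at 6.83 to 14.5 FPKM and 8.51 to 11.8 FPKM in Prm2-low libraries.

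Some genes of somatic testis cells were found in the Prm2-high libraries, and others were alike in both classes. Of 8 listed Leydig cell genes 4 were tested and 1 called, beside 1.16% of all tested genes called higher. The called gene was Cyp17a1, the steroid 17α-hydroxylase, which was named after its values were seen because it did not reach 1 FPKM. It was at 0.0668 to 0.898 FPKM in Prm2-high libraries, against 0 to 0.0243 FPKM in Prm2-low libraries, and the classes did not overlap. Star, a Leydig cell gene that was present throughout, was at 1.68 to 2.58 FPKM in Prm2-high libraries and at 1.76 to 2.54 FPKM in Prm2-low libraries (log2 fold change -0.02 ± 0.11) and was not called. Insl3, the insulin-like peptide of Leydig cells, stood at 2.59 FPKM in Δ3102 replicate 3, 0.771 FPKM in AG-KO replicate 2, 1.56 FPKM in NG-KO replicate 1 and 3.18 FPKM in WT replicate 2, but at 0 counts in the other 3 Prm2-high libraries (NG-KO replicates 3 and 4 and WT replicate 3). In Prm2-low libraries Insl3 did not exceed 0.141 FPKM. Of 11 listed Sertoli cell genes 5 were tested and 0 called by edgeR (2 at an unadjusted p under 0.05, Cst9 and Defb19 called by DESeq2, 1 by limma). Inha, the Sertoli gene with the highest level, was at 7.12 to 12.8 FPKM in Prm2-high libraries and at 6.25 to 13.5 FPKM in Prm2-low libraries (log2 fold change -0.03 ± 0.19). Defb19, a defensin of Sertoli cells, reached 2.67 FPKM in Δ3102 replicate 3 and was at 0 counts in all Prm2-low libraries and in NG-KO replicate 3. In bulk tissue, fewer cells of a type and less RNA per cell cannot be told apart, so these levels do not count cells.

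Other reproductive sources were near 0. None of the 15 listed genes of epididymis and seminal vesicle exceeded 0.16 FPKM, and 10 of them had no count in any library. None of the 10 oocyte genes exceeded 0.838 FPKM, and Gdf9, the only one tested, was not called (log2 fold change -0.42, adjusted p = 0.976).

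**Figure D4:**
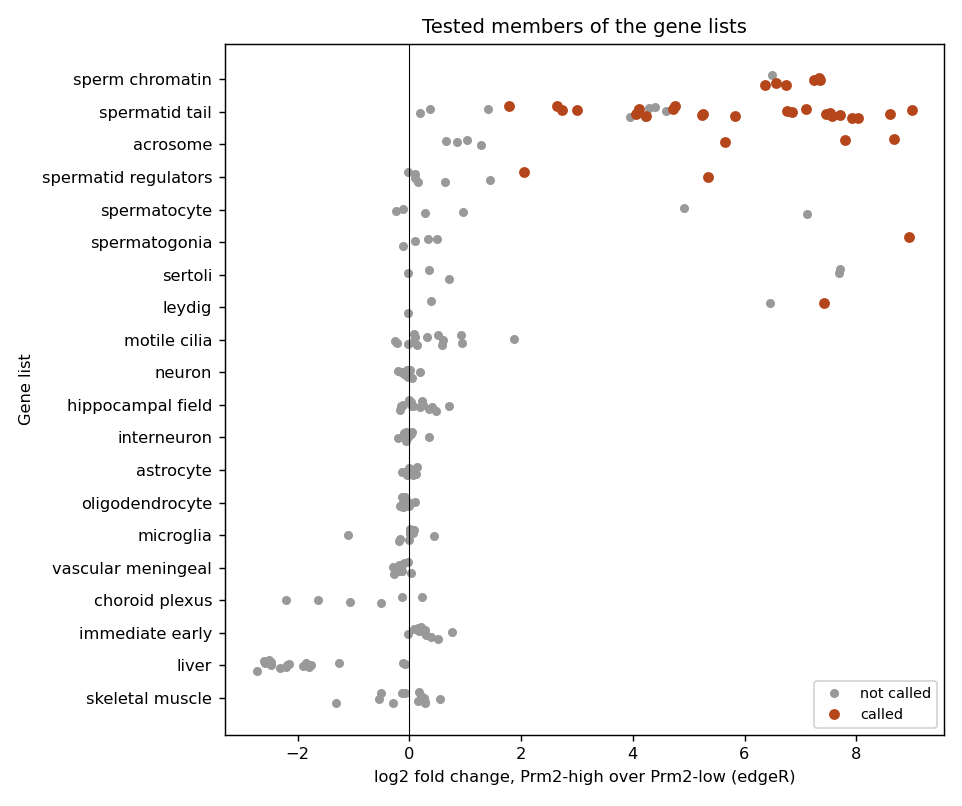
Log2 fold change of Prm2-high over Prm2-low libraries (edgeR, genotype as a term) for each tested member of 20 gene lists, 1 point per gene, with genes called at an adjusted p under 0.05 filled in red. Spermatid lists reach 8.99, whereas the neuronal and glial lists stand around 0 with no member called.

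The second question was which brain genes went with Prm2, which the classes did not use. Across 11 lists of hippocampal cell types, other brain regions, ependymal cilia and activity-induced genes, 128 of 138 genes were tested and 0 called by edgeR, beside 1.16% of all tested genes called higher. Among tested genes with a median of at least 1 FPKM in Prm2-low libraries, 0.0515% were called. A count of 0 among 128 therefore does not set brain genes apart from other expressed genes. At an unadjusted p under 0.05 there were 8 of the 128 brain-list genes, DESeq2 called 2 and limma 0. The median log2 fold change over the 128 genes was -0.02, with 58 positive and 70 negative. The median was -0.04 for neuronal genes (13 tested), 0.13 for genes of hippocampal fields (14) and -0.05 for interneuron genes (11). It was 0 for astrocyte genes (12), -0.08 for oligodendrocyte genes (14, with 12 negative) and 0.01 for microglial genes (11, from -1.1 to 0.43). Activity-induced genes had a median of 0.27 (11, with 10 positive) and vascular and meningeal genes one of -0.15 (11, with 10 negative). Genes of other brain regions had a median of -0.14 (11) and choroid plexus genes one of -0.79 (6). The summed level of the neuronal list was 1710 to 1970 FPKM in Prm2-high libraries and 1740 to 1950 FPKM in Prm2-low libraries. The astrocyte list summed to 975 to 1190 FPKM in Prm2-high libraries and 1080 to 1180 FPKM in Prm2-low libraries.

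The genes closest to a call were those of motile cilia, which line the ventricles and share their axoneme with the sperm tail. Of 14 tested genes 0 were called by edgeR, and the median log2 fold change was 0.23. Tekt1, a tektin of cilia and flagella, was at 2.52 to 5.01 FPKM in Prm2-high libraries with a median of 3.02, against 0.928 to 2.66 FPKM with a median of 2.2 in Prm2-low libraries (adjusted p = 0.235 in edgeR). Tekt2 was at 0.745 to 2.14 FPKM with a median of 1.97 in Prm2-high libraries, against 0.0611 to 1.24 FPKM with a median of 0.583 in Prm2-low libraries (adjusted p = 0.446 in edgeR). These are the 2 genes that DESeq2 called (adjusted p = 0.0248 and 0.0205), and both were named after their values were seen. The classes overlapped for both. The cilia list summed to 30.9 to 73.4 FPKM in Prm2-high libraries and 29.6 to 75.0 FPKM in Prm2-low libraries.

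Outside the brain lists, 7 genes were called that had a median of at least 1 FPKM in Prm2-low libraries. Ybx2 and Meig1 among them stood in germ-cell lists. All 7 genes were higher in Prm2-high libraries. They were 0.0515% of the 13597 tested genes at that level. In each of the 4 genotypes, every Prm2-high library exceeded every Prm2-low library of that genotype for all 7 genes. The fit that picked these genes held genotype as a term, and each genotype had only 1 library in 1 of the classes. This separation is therefore a description and no support for the calls.

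Ybx2 and Meig1 are germ-cell genes that the Prm2-low hippocampus also contained. Ybx2, a Y-box protein that binds and stores spermatid mRNAs including protamine mRNAs, had 2.92, 5.04 and 8.27 FPKM at the lowest, median and highest in Prm2-high libraries, against 0.62, 1.29 and 1.63 FPKM in Prm2-low libraries (log2 fold change 2.06 ± 0.3 SE, adjusted p = 0.00334). Meig1, needed for the manchette of elongating spermatids in mice, had 3.71, 6.08 and 9.94 FPKM in Prm2-high libraries, against 1.55, 1.69 and 3.03 FPKM in Prm2-low libraries (log2 fold change 1.78 ± 0.25, adjusted p = 0.00281). The classes did not overlap for either gene. Above the median of Prm2-low libraries, Ybx2 added 0.111 to 0.182 times the FPKM of Prm2 in the 7 Prm2-high libraries, and Meig1 0.109 to 0.276 times. Genes described below also added to their Prm2-low medians, with 0.081 to 0.238 times for Smim24 and 0.0278 to 0.0826 times for Slc2a5. The values were 0.111 to 0.462 times for Gm5617 and 0.147 to 0.827 times for Gm10233.

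Slc2a5 and Smim24 carry no germ-cell label here. Slc2a5, the fructose transporter that microglia express in brain, had 1.55, 2.15 and 3.03 FPKM in Prm2-high libraries, against 1.06, 1.13 and 1.74 FPKM in Prm2-low libraries (log2 fold change 0.89 ± 0.16, adjusted p = 0.0134). Only Δ3102 replicate 1 among Prm2-low libraries reached into the Prm2-high range. Of 11 microglial list genes 0 were called by edgeR or DESeq2, with 2 at an unadjusted p under 0.05, and the list summed to 158 to 215 FPKM in Prm2-high libraries and 164 to 200 FPKM in Prm2-low libraries. Smim24, a small membrane protein, had 2.7, 4.62 and 7.32 FPKM in Prm2-high libraries, against 1.06, 1.51 and 3.47 FPKM in Prm2-low libraries (log2 fold change 1.46 ± 0.28, adjusted p = 0.0216). Slc2a5 kept its call in 20 and Smim24 in 19 of 26 alternative settings, and both lost it without Δ3102 replicate 3 and without AG-KO replicate 2. Over the 7 Prm2-high libraries r with Prm2 was 0.96 for Ybx2, 0.83 for Meig1, 0.78 for Slc2a5 and 0.89 for Smim24, as a description.

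The remaining 3 are predicted gene models. Gm10233 had 2.68, 11.2 and 15.0 FPKM in Prm2-high libraries, against 0.295, 1.11 and 3.93 FPKM in Prm2-low libraries (log2 fold change 2.99 ± 0.51, adjusted p = 0.0102), and it lost its call without Δ3102 replicate 3 or AG-KO replicate 2. It lies within Adam2, a sperm surface gene on the other strand that ranged from 0.0297 to 0.903 FPKM in Prm2-high libraries and did not exceed 0.0204 FPKM in Prm2-low libraries, and reads of the 2 genes cannot be told apart if strand was not used in counting. Gm5617 had 5.25, 9.29 and 13.4 FPKM in Prm2-high libraries, against 1.73, 3.62 and 5.39 FPKM in Prm2-low libraries (log2 fold change 1.53 ± 0.23, adjusted p = 0.00417). Gm32391 had 4.26, 6.48 and 8.5 FPKM in Prm2-high libraries, against 2.65, 4.14 and 5.16 FPKM in Prm2-low libraries (log2 fold change 0.89 ± 0.19, adjusted p = 0.0475). It kept its call in 9 of 26 alternative settings, and its r with Prm2 was -0.41.

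**Figure D5:**
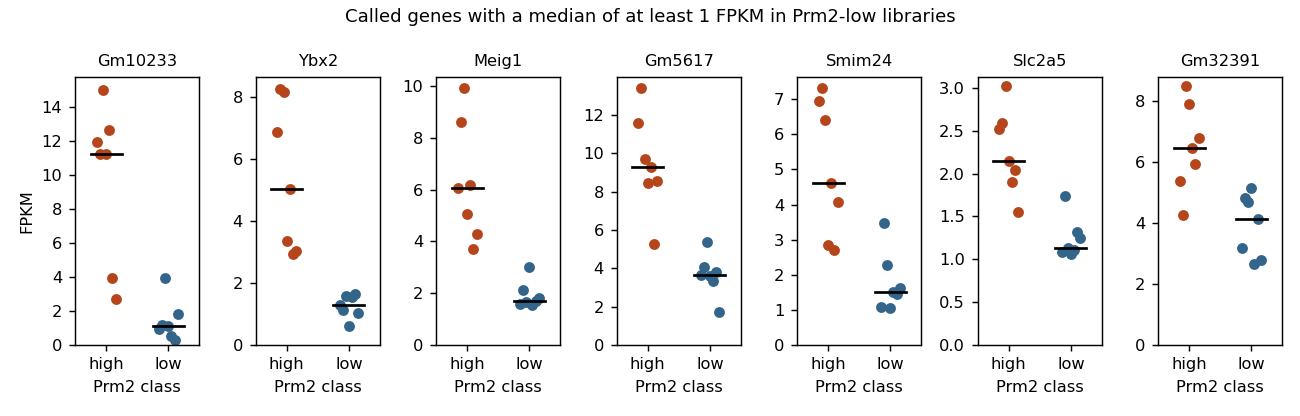
FPKM of the 7 called genes with a median of at least 1 FPKM in Prm2-low libraries, Prm2-high libraries at the left and Prm2-low libraries at the right of each panel, 1 point per library and a bar at the median. Ybx2 and Meig1 do not overlap between the classes, whereas Gm10233, Slc2a5, Smim24, Gm5617 and Gm32391 do.

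The only gene called lower was Arhgef5, at 0.208, 0.265 and 0.402 FPKM in Prm2-high libraries, against 0.338, 0.504 and 0.641 FPKM in Prm2-low libraries (log2 fold change -0.8 ± 0.16, adjusted p = 0.0275). It was named after its value was seen, the classes overlapped, and it was called in 10 of 26 alternative settings.

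Transcripts of 2 other tissues varied between the libraries without following Prm2. Alb, the albumin gene of liver, was at 1.11 to 165 FPKM in Prm2-high libraries (median 41.7) and at 0 to 189 FPKM in Prm2-low libraries (median 55.8). Its difference of 0.01 on the log2(FPKM + 0.1) scale was within the spread (exact two-sided permutation test, p = 0.999, adjusted p = 0.999), and the sign changed with the pseudocount. Acta1, skeletal muscle actin, was at 4.39 to 178 FPKM in Prm2-high libraries and at 3.43 to 143 FPKM in Prm2-low libraries (difference 0.12, exact permutation p = 0.899, adjusted p = 0.999). All 18 liver genes had negative log2 fold changes in the fit with genotype as a term, with a median of -2.2, and 0 were called by edgeR, 0 reached an unadjusted p of 0.05 and DESeq2 called 1, Tat. The choroid plexus list summed to 5.55 to 123 FPKM in Prm2-high libraries and 46.7 to 1440 FPKM in Prm2-low libraries, and 0 of its 6 tested genes were called or reached an unadjusted p of 0.05. With Alb and Acta1 as covariates 134 genes were called between the classes, of which 120 were among the 211.

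The third question was whether germ-cell genes differed between the genotypes that the study compared. The Prm2-high class held 1 of 3 Δ3102, 1 of 4 AG-KO and 3 of 4 NG-KO libraries, and 2 of 3 WT libraries. Of the 66 tested germ-cell genes 0 were called by edgeR in each of the 3 comparisons with WT mice, where 0.0111% of tested genes were called for Δ3102 mice, 0.0221% for AG-KO mice and 0.072% for NG-KO mice. At an unadjusted p under 0.05 there were 0, 3 and 2 germ-cell genes for Δ3102, AG-KO and NG-KO mice, DESeq2 called 0, 1 (Tssk6) and 1 (Camk4, which neurons also express), and limma called 0. Prm2 had log2 fold changes of -1.1 ± 2.25 in Δ3102, -3.15 ± 2.18 in AG-KO and -1.03 ± 2.07 in NG-KO mice relative to WT mice (SE, adjusted p = 1, 0.531 and 0.916). With standard errors of over 2 log2 units these differences are imprecise, and the 3 comparisons share the WT libraries.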

How the data were processed

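RNA of hippocampi was measured in 14 libraries (3 Δ3102, 4 AG-KO, 4 NG-KO and 3 WT mice). Per the labels and the study's methods, poly(A) RNA was sequenced as paired reads from libraries with dUTP-marked second strands and molecular identifiers, and the submitters' processing notes name cutadapt 1.9, HISAT2 2.0.4, UMI-tools, StringTie 1.3.4d, DESeq2 and edgeR, with build GRCm38. The authors deposited 2 values per gene and library, FPKM from StringTie and whole-number counts, whose counting mode is not given in the sources used here. An FPKM of 0.0001 is a floor and was read as 0. The authors' deposited counts summed to between 44527024 and 62669865 per library. All 55450 gene IDs matched GENCODE vM21.

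Libraries were classed by Prm2 FPKM (at least 10, or under 1). The classes, the 25 gene lists (339 of 344 symbols in the table) and the tests were chosen with earlier results of these data known. Counts of 18059 genes with at least 0.5 FPKM in at least 3 libraries were fitted with edgeR 4.0.16 (TMM, quasi-likelihood test, two-sided, Benjamini-Hochberg at 0.05), with genotype and class as terms, and for genotypes with 1 mean per genotype. The SE of an edgeR log2 fold change is its size without sign divided by the square root of the F statistic. Scripts were tested on simulated data. Limma 3.58.1 on log2(FPKM + 0.1), DESeq2 1.42.0, other filters, scalings and pseudocounts, covariates, a replicate block and leaving out each library were alternatives. Alb, Acta1, depth and detected genes were compared by exact permutation over libraries.

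Named genes were every sperm chromatin gene, the highest members of other testis lists at 1 FPKM or more in some library, up to 20 genes most like Prm2 (as defined in the text), called genes with a median of at least 1 FPKM in Prm2-low libraries (up to 10 per direction), called brain-list genes, and Alb, Acta1, Gper1 and Xist. Levels between genes were compared in FPKM, which is per length. A count of 0 was read as allowing up to 3 counts, which covers counting error only. Nothing says that replicates were more than separate samples, so p-values measure the spread between them. Promoter windows came from RefSeq on GRCm38.p6, matched by Ensembl ID or symbol. Samples with the same replicate number did not deviate together (correlations -0.284 to 0.308), so they were not paired.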

Additional observations from a re-analysis of the deposited data

Results flagged for a closer look

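In the 2 genotypes with 4 libraries, a library was singled out where its gap to the nearest of the other 3 relative to the whole range exceeded Dixon's critical value. Of 42 such groups of values 9 met this, all of them AG-KO. Chance gives about 1 in 20, but 8 of the 9 values are of Prm2 or of genes taken for following it, in the library that the Prm2 rule set apart, so the tally is not set against chance.

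AG-KO replicate 2, the only Prm2-high library of its genotype, stood apart for 8 genes. Its values, against the highest of the other 3 AG-KO libraries, were 12.3 FPKM against 0 for Prm2, 13 against 0.121 for Tnp2, 11.1 against 0.306 for Tnp1, 1.3 against 0 for Hils1, 1.23 against 0 for Prm3 and 0.857 against 0 for H1fnt. The remaining 2 were Gm10233 at 11.2 FPKM against 1.11 and Gm5617 at 8.47 FPKM against 3.78. Prm1 is not among them, because the other 3 AG-KO libraries held it at 6.9 to 21.8 FPKM. AG-KO replicate 1 stood apart for Alb, at 44.8 FPKM against at most 1.12 FPKM in the other 3.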

How the results depend on the processing

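In place of the 211 genes called between the classes, 376 were called with DESeq2, 133 with a filter of at least 1 FPKM in 3 libraries, 134 with Alb and Acta1 as covariates, and 119 to 216 when each library was left out in turn. With the replicate number as a replicate block 93 were called, of which 87 were among the 211. The cause of these changes was not tested, except that the stricter filter tests fewer genes. Without the 3 AG-KO libraries with Prm1 and no Prm2, an alternative added after the data were seen, 190 were called. Brain-list calls stayed at 0 except for 2 with DESeq2 (Tekt1, Tekt2) and 1 (Rsph1) without those AG-KO libraries, and at 0 with each library left out. Germ-cell-list calls against WT mice were 1 with DESeq2 for AG-KO and for NG-KO mice, 0 for Δ3102 mice, and 0 with each library left out.

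The Alb difference turned to -0.64 with a pseudocount of 1 (exact permutation p = 0.761), and ranged from -1.19 to 0.63 with each library left out, that of Acta1 from -0.42 to 0.63, of log2 depth from -0.0551 to 0.0106 and of detected genes from 192.5 to 325.5. Permuted within genotype, the difference of 269 detected genes had an exact permutation p of 0.0347, and without the called genes, an alternative added later, the difference was 121 (exact permutation p = 0.385). For single named genes, 745 of the alternative values kept direction and side of the threshold, 57 lost the call, 3 gained it and 0 reversed.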
